A study of Mus musculus with 8 samples.

Results

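CHD4 was the only one of 3 chromatin remodelers with a called site at 793 places in the untreated 3134 line of mouse mammary epithelial cells, derived from a subclone. The remodelers CHD4, Brg1 and Snf2h were each mapped by chromatin immunoprecipitation sequencing (ChIP-seq), with 2 libraries per antibody (the Brg1 antibody is a monoclonal), and the authors called hotspots, intervals enriched for sequence tags, in each library. All 6 libraries came from the same untreated line, so the antibody is what separates the groups. The labels' treatment text also describes tetracycline-regulated lines with dominant-negative remodelers, but no library's own fields name one. The labels also name 2 DNA inputs, which were not analysed here, so enrichment over input at these places is not shown. Hotspots of the 6 lists that overlapped by at least 1 bp were merged, which gave 532751 regions. A region was called exclusive to CHD4 when it held a hotspot of both CHD4 libraries and of none of the 4 Brg1 and Snf2h libraries. Such regions were 0.149% of all merged regions, and their presence in the CHD4 lists and absence from the others is the rule itself and not a finding. Absence here means that no hotspot was called, in lists that differ in length and threshold.

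CHD4 is the motor subunit of the NuRD complex, which joins nucleosome movement by an ATPase to histone deacetylation by HDAC1 and HDAC2, and NuRD is best known for silencing or tuning genes at promoters and enhancers during development. CHD4 also works outside NuRD, for example with ADNP and HP1 proteins. Brg1 is the motor of SWI/SNF complexes, which open chromatin by sliding and ejecting nucleosomes, and Snf2h is the motor of ISWI complexes, which space nucleosomes evenly. All coordinates below are on the mm9 assembly, and genes, promoters and sequence at them were not analysed here.

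Exclusive regions were a small part of the regions with hotspots of both CHD4 libraries. Of the 30083 merged regions with hotspots of both CHD4 libraries, 793 (2.64%, 95% Wilson interval 2.46% to 2.82%, covering counting error only) held no other antibody's hotspot. When every list was limited to hotspots at a common Z score, the authors' measure of enrichment, 243 regions (1.31%) were exclusive and 112 of the 793 overlapped one of them. When every list was limited to its tallest hotspots so that all were equally long, 623 regions were exclusive and 135 of the 793 overlapped one of them. One other list was present at 1934 of these regions, 2 at 5361, 3 at 11553 and all 4 at 10442. The 29290 regions with at least 1 other list are called shared CHD4 regions here. In 374 of them no hotspots of the 2 CHD4 libraries overlapped each other, and other antibodies' hotspots joined them. An exclusive region cannot be joined in this way. Where a single other list was present, it was Brg1 replicate 2 at 1420 regions (73.4%), Snf2h replicate 2 at 375, Brg1 replicate 1 at 75 and Snf2h replicate 1 at 64. Brg1 replicate 2 is the longest of the 4 other lists, with 260036 hotspots and a lowest Z score of 2.00, and without it the number of exclusive regions was 2284. The remaining lists hold 39797 (CHD4 replicate 1), 293135 (CHD4 replicate 2), 115361 (Brg1 replicate 1), 32310 (Snf2h replicate 1) and 79969 hotspots (Snf2h replicate 2), and the tags sequenced per library are unknown. With CHD4 standing on replicate 1 alone there were 3935 exclusive regions, and on replicate 2 alone 179668, so the size of the class depends on requiring both CHD4 libraries.

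Most exclusive regions were low and narrow. The authors' maximum tag density, whose scaling is not stated and is compared only within a list, had a median of 9.01 in exclusive regions and 15.9 in shared CHD4 regions in CHD4 replicate 1. In CHD4 replicate 2 the medians were 4.20 in exclusive and 10.6 in shared regions. The interquartile range of exclusive regions ran from 5.55 to 12.5 in replicate 1, against 11.8 to 22.9 for shared regions, so the bulk of the exclusive regions lay below the bulk of the shared ones. The median exclusive region stood at percentile 20.7 of the CHD4 replicate 1 list and at percentile 64.9 of the CHD4 replicate 2 list. Shared regions stood at percentiles 59.4 and 93.4. The replicate 2 list goes down to a Z score of 2.00 and the replicate 1 list to 8.77, and what part this has in the difference between the percentiles was not tested.

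**Figure D1:**
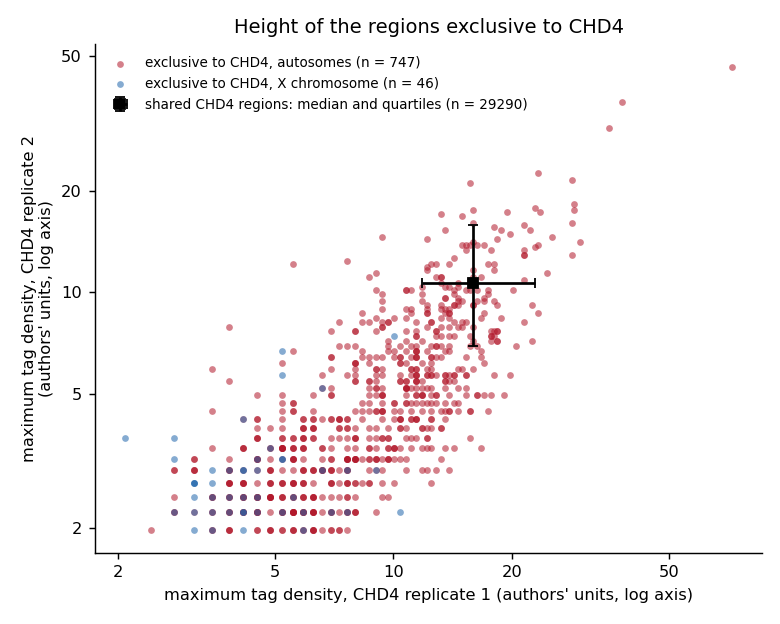
Maximum tag density of each region exclusive to CHD4 in CHD4 replicate 1 (x axis) and CHD4 replicate 2 (y axis), both on log axes in the authors' units, with regions on X in blue; the black square and bars are the median and interquartile range of the 29290 shared CHD4 regions. Most of the 793 points lie below and left of the square, in fixed steps of density, and the highest point is at 72.5 and 46.5.

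The Z scores gave the same order. Their median in CHD4 replicate 1 was 10.2 in exclusive regions and 15.02 in shared regions, and in CHD4 replicate 2 it was 5.58 in exclusive and 12.4 in shared regions. Only 112 exclusive regions (14.1%) reached a Z score of 9.49, the highest of the lists' lowest values, in both CHD4 libraries, against 18488 shared regions (63.1%). Exclusive regions had a median width of 531 bp and shared regions one of 1159 bp. A shared region also spans hotspots of other antibodies, so part of that gap comes from how regions are built. The ratio of maximum to average density was lower as well. Its median was 3.49 in exclusive and 4.24 in shared regions in replicate 1, and 3.53 and 4.93 in replicate 2 in the same order. In replicate 2 its lowest value was 0.955 in exclusive and 0.696 in shared regions. A maximum cannot lie below the mean of the same profile, so the ratio is not read as the shape of a profile. The 2 densities share the hotspot's width, so these ratios are a description.

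The share of CHD4 regions that were exclusive was lower the taller the region, in both CHD4 lists. In the lowest 10% of CHD4 replicate 1, 256 of 938 regions were exclusive (27.3%, Wilson interval 24.5% to 30.2%). In the next 10% the share was 6.25%, near the median it was 1.71% to 2.46%, and in the highest 10% it was 0.105%, or 4 of 3813 regions. In CHD4 replicate 2 the gradient was more even, with 29.5% of 322 regions in the lowest 10%, 12.9% between percentiles 40 and 50 and 0.625% of 19040 regions in the highest. Height and overlap come from the same lists, so these shares carry no test. The gradient also ran through the partly shared regions: median density in CHD4 replicate 1 was 9.01 with no other list, 10.4 with 1, 12.8 with 2, 16.3 with 3 and 20.1 with 4.

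**Figure D2:**
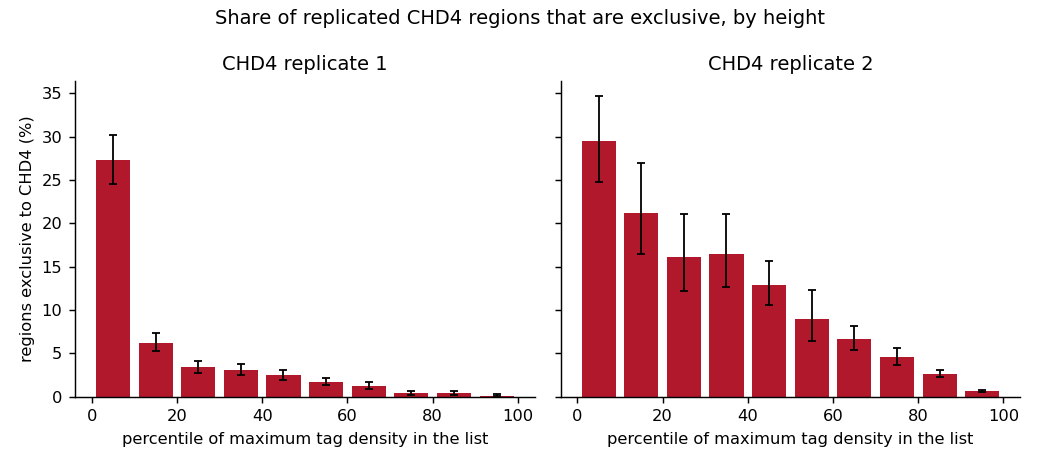
Share of regions with both CHD4 lists that were exclusive to CHD4 (y axis, percent) in steps of 10 percentiles of maximum tag density within CHD4 replicate 1 (left) and CHD4 replicate 2 (right); bars are shares and whiskers 95% Wilson intervals. The share was 27.3% and 29.5% in the lowest 10% of the lists and 0.105% and 0.625% in the highest.

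Few exclusive regions were as tall as the typical shared one. Only 39 (4.92%) reached the median density of shared regions in both CHD4 lists, against 11524 shared regions (39.3%). Both densities were above the list medians in 128 exclusive regions, both above percentile 75 in 27 and both above percentile 90 in 4. Among shared regions these numbers were 17633, 9470 and 3772. The 10 regions of highest mean percentile over both CHD4 lists are given here.

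The tallest stood apart from the others. Chromosome 16 at 11143893 to 11144415 reached a density of 72.5 in CHD4 replicate 1 and 46.5 in replicate 2, with Z scores of 82.5 and 62.9. It ranked at percentiles 99.8 and 99.97 of the lists, and all 4 Brg1 and Snf2h lists were silent for at least 8646 bp on either side. Their nearest hotspots lay 8646 to 9035 bp away, in all 4 lists. The nearest shared CHD4 region was 30084 bp away.

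Chromosome 18 at 54858309 to 54858918 had densities of 38.1 and 36.6 and the highest replicate 2 Z score of the class, 70.1. A Brg1 replicate 2 hotspot lay 1484 bp from it, and the other lists began 15218 to 36052 bp away. Chromosome 9 at 100448651 to 100449339 had densities of 35.4 and 30.6, with hotspots of Brg1 replicate 2, Brg1 replicate 1 and Snf2h replicate 2 at 1101, 1343 and 1650 bp. These 3 regions were the only ones above a density of 30 in both CHD4 libraries.

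The next 7 had replicate 1 densities between 25.3 and 29.8 and replicate 2 densities between 12.8 and 21.5. They lay on chromosome 1 at 174448016 to 174448947 and at 121156939 to 121157878, chromosome 10 at 80549689 to 80550288, chromosome 6 at 114411485 to 114411844 and at 146825231 to 146825890, chromosome 4 at 117746649 to 117747265, and chromosome 5 at 123507221 to 123507923. Their surroundings differed. The chromosome 6 region at 146825231 was 6094 bp from any other antibody, while the chromosome 5 region was 9 bp from a Brg1 replicate 2 hotspot and the chromosome 1 region at 121156939 was 256 bp from one and 35 bp from a shared CHD4 region. The region on chromosome 4 lay 2578 bp from a region with replicated sites of all 3 remodelers.

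At the edge of the rule, 2 regions touched another antibody's hotspot without sharing a base. Chromosome 18 at 37480327 to 37480886, with densities of 5.20 and 3.46, touched a Brg1 replicate 1 hotspot and had hotspots of the other 3 lists at 52, 146 and 223 bp. Chromosome 6 at 85684401 to 85685475, with densities of 13.2 and 3.95, touched a Brg1 replicate 2 hotspot. Just outside the rule, chromosome 13 at 62356450 to 62357157 shared 1 bp with an Snf2h replicate 2 hotspot of density 3.31 and had CHD4 densities of 4.51 and 2.22. Of the 793 exclusive regions, 64 had another antibody within 100 bp and 215 (27.1%) within 500 bp. Of 1855 CHD4 regions with exactly 1 hotspot of another antibody, 26 overlapped it by 100 bp or less. At the other end, chromosome X at 120827700 to 120828143 lay 211789 bp from any Brg1 or Snf2h hotspot, with CHD4 densities of 2.08 and 3.71 and Z scores of 10.5 and 18.8. Chromosome 19 at 3099998 to 3100452 lay 59066 bp away, with densities of 4.85 and 2.97.

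Most exclusive regions had a hotspot of another remodeler within 5 kb. The median distance to the nearest Brg1 or Snf2h hotspot was 1490 bp (order-statistic 95% interval 1302 to 1628 bp, n = 793). With Brg1 replicate 2 left out the class grew to 2284 regions, and the median over these was 2251.5 bp. Another antibody was called within 1 kb of 324 exclusive regions (40.9%), within 5 kb of 653 (82.3%) and within 10 kb of 746 (94.1%), and 2 regions had none within 50 kb. The nearest hotspot belonged to Brg1 replicate 2 at 512 regions, Brg1 replicate 1 at 140, Snf2h replicate 2 at 117 and Snf2h replicate 1 at 24. By list, the median distance was 5763 bp to Brg1 replicate 1, 2079 bp to Brg1 replicate 2, 22078 bp to Snf2h replicate 1 and 7430 bp to Snf2h replicate 2. These medians follow the lengths of the lists, the longest list being the nearest and the shortest the farthest, so they do not rank the remodelers. Distances from random positions to these long lists were not computed. Whether exclusive regions lay nearer to other antibodies than other places do is therefore not known.

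**Figure D3:**
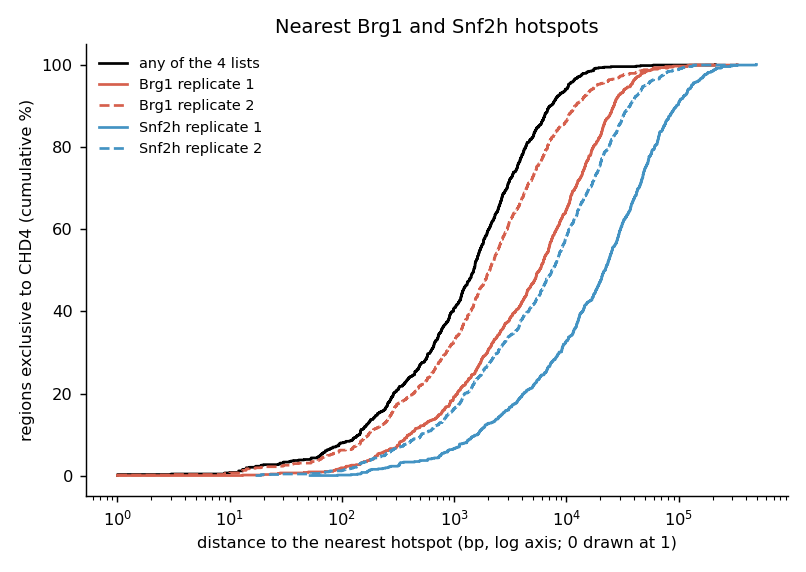
Cumulative share of the 793 regions exclusive to CHD4 (y axis, percent) within a given distance of the nearest hotspot (x axis, bp, log scale) of any of the 4 Brg1 and Snf2h lists (black) and of each list. Another antibody lay within 1 kb of 40.9% of the regions and within 10 kb of 94.1%.

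How close an exclusive region lay to the shared CHD4 regions went with its height. The median distance from an exclusive region to the nearest shared CHD4 region was 23080 bp, and from a shared region to the next shared one it was 9726.5 bp. In the lowest 10% of CHD4 replicate 1, it was 220611.5 bp for exclusive regions (95% interval 179293 to 290576 bp, n = 256) and 118300 bp for shared regions (105417 to 135398 bp, n = 682). Between percentiles 10 and 20 the medians were 35980.5 and 33645 bp in that order, with intervals of 20883 to 59314 bp and 29220 to 36793 bp. Between percentiles 20 and 50 they were 9964 bp for exclusive and 13852 bp for shared regions, and above percentile 50 they were 6828 and 6742 bp. At matched height, then, exclusive regions lay farther from other CHD4 binding in the lowest 10%, nearer between percentiles 20 and 50, where the intervals of 6182 to 12500 bp and 13248 to 14461 bp did not overlap, and their intervals overlapped those of shared regions in the other height ranges. Neighbouring regions are not independent, and these intervals cover counting error only.

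The median distance from an exclusive region to the nearest other one was 1148912 bp, and 4 regions had another within 5 kb. The closest pair was 3473 bp apart. The class is small, and the spacing of as many randomly placed regions was not computed. These distances are therefore not read as a trait of the class. Among windows of 10 Mb, chromosome 5 at 140000001 to 150000000 held the most exclusive regions, 13 beside 179 shared CHD4 regions (6.77% of the CHD4 regions there). The windows at 140000001 to 150000000 on chromosome 1 and at 100000001 to 110000000 on chromosome 10 held 8 and 7 exclusive regions beside only 48 and 41 shared ones. These windows were chosen after their values were seen.

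Across chromosomes, exclusive regions were distributed differently from shared ones, above all on X. Relative to the mean of each set, regions per Mb on the 19 autosomes ranged from 0.632 (chromosome 12) to 1.23 (chromosomes 10 and 11) for exclusive regions, and from 0.768 to 1.58 for shared regions. Over the 19 autosomes the 2 sets of densities had a Spearman's rho of 0.205, given as a description, since both come from the same libraries. Chromosome 11, the densest for shared regions at 1.58, stood at 1.23 for exclusive regions, and chromosome 17 stood at 0.740 for exclusive and 1.18 for shared regions. On X there were 46 exclusive regions (5.80% of the class, Wilson interval 4.38% to 7.65%) and 726 shared regions (2.48%, 2.31% to 2.66%). The density on X was 0.909 of the autosomal density for exclusive regions (0.676 to 1.22) and 0.375 for shared regions, and 5.96% of the CHD4 regions on X were exclusive, against 1.67% to 3.43% on the autosomes. With lists of equal length, which keep only the tallest hotspots, the ratio was 0.168 for exclusive regions (7 on X) and 0.152 for shared regions, so the 2 sets then differed little on X. At a common Z score it was 0.767 for exclusive (12 on X) and 0.358 for shared regions. With CHD4 standing on replicate 1 alone the ratio for exclusive regions was 2.02, and on replicate 2 alone it was 0.622.

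**Figure D4:**
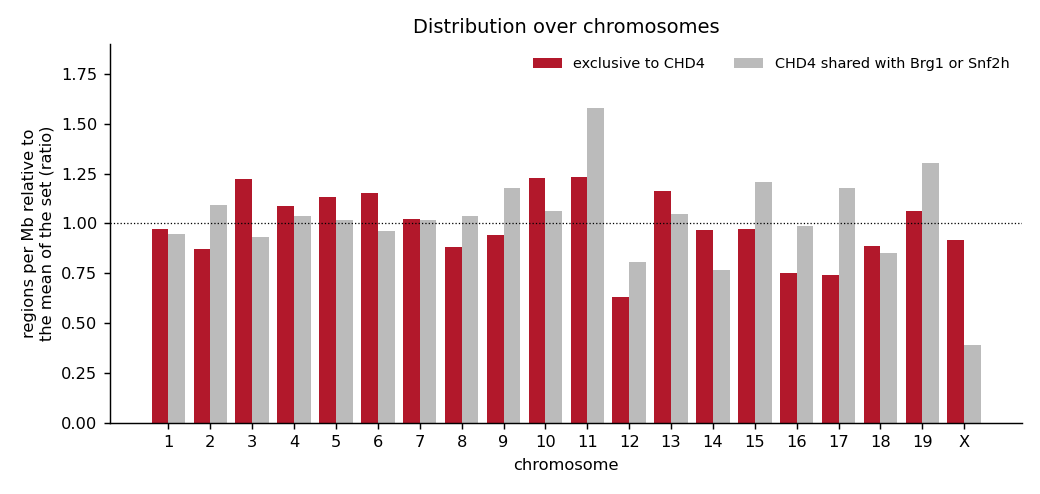
Regions per Mb on each chromosome relative to the mean of the set (y axis, ratio) for regions exclusive to CHD4 (red) and CHD4 regions shared with Brg1 or Snf2h (grey); the dotted line marks the mean. On X the red bar is at 0.915 and the grey bar at 0.391, and the autosomal red bars range from 0.632 to 1.23.

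The exclusive regions on X were low ones, and within ranges of height the direction of the difference on X depended on which CHD4 library gave the height. In CHD4 replicate 1, 38 of the 46 exclusive regions on X (82.6%) were in the lowest 10% of density, against 218 of 747 (29.2%) on the autosomes. Their median density was 4.16 on X and 9.36 on the autosomes in replicate 1, and 2.72 on X and 4.45 on the autosomes in replicate 2. Their median Z scores were 10.3 on X and 10.2 on the autosomes in replicate 1, and 6.51 and 5.47 in replicate 2, so among exclusive regions a lower density on X went with a similar or higher Z score. This was not so for other CHD4 hotspots in replicate 1, where shared regions had median Z scores of 14.04 on X and 15.05 on the autosomes. Exclusive regions lay near the lowest Z score of that list, 8.77, which leaves their medians little room to differ. Shared regions of like Z score were not compared. The whole replicate 1 list had 11.4 on X and 13.3 on the autosomes, with median densities of 6.24 and 14.2. The whole replicate 2 list did show it, so it is not particular to exclusive regions there. Its median densities were 2.72 on X and 3.46 on the autosomes, and its median Z scores 5.49 and 3.93. Shared regions in replicate 2 had median Z scores of 11.7 on X and 12.4 on the autosomes. In the lowest 10% of replicate 1, the X to autosome ratio was 2.57 for exclusive (1.83 to 3.63) and 3.85 for shared regions (3.20 to 4.63), and these intervals overlap. Between percentiles 10 and 30 it was 0.532 for exclusive (0.267 to 1.06) and 1.05 for shared regions (0.934 to 1.18). Above percentile 30, 0 of 307 exclusive regions lay on X, which allows a share of up to 0.977%, and 275 of 23928 shared regions did (1.15%). In replicate 1, then, the ratio of exclusive regions was the lower one in each range. By height in CHD4 replicate 2 it was the higher one in all 5 steps of 10 percentiles below the list median, with 2.99 for exclusive and 1.99 for shared regions in the lowest step and 0.923 for exclusive and 0.903 for shared regions in the highest of the 5, and the lower one in the 5 steps above it. Below that median as a whole it was 2.06 for exclusive (1.47 to 2.87, 39 regions on X) and 1.36 for shared regions (1.13 to 1.64). Between percentiles 50 and 80 it was 0.306 for exclusive (0.118 to 0.794, 4 on X) and 0.797 for shared regions (0.681 to 0.932). Above percentile 80 it was 0.162 for exclusive (0.0547 to 0.478, 3 on X) and 0.268 for shared regions (0.244 to 0.295). The intervals overlap in each of these 3 ranges, which were chosen after the values were seen.

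The 2 CHD4 libraries ranked the exclusive regions alike. Spearman's rho of maximum density between replicates was 0.761 over the 793 exclusive regions and 0.723 over the shared ones, a description over regions that share libraries. In the lowest 20% of CHD4 replicate 1 it was 0.352 over 394 exclusive and 0.330 over 2751 shared regions. The 2 CHD4 hotspots of an exclusive region overlapped by a median of 265 bp, or 95.4% of the shorter, and shared regions had 496 bp and 100%. In 674 exclusive regions (85.0%) the overlap covered at least 50% of the shorter hotspot, against 95.5% of shared regions, and the midpoints were a median of 85 bp apart in exclusive and 113.5 bp apart in shared regions. All but 7 exclusive regions held exactly 1 hotspot of each CHD4 library, and the 7 held 2 of replicate 2.

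Every list took part in the rule for the class, so no library was left to check the 793 regions. A narrower question was put to other sets of regions, each chosen on a single library of each antibody. It was how often the libraries left out of that choice marked them. When regions were chosen on replicate 1 of each antibody alone, 10121 had CHD4 and neither Brg1 nor Snf2h. In the replicate 2 libraries, 53.8% of them (Wilson interval 52.8% to 54.8%) held a CHD4 hotspot, 52.4% (51.4% to 53.4%) a Brg1 hotspot and 34.3% (33.4% to 35.2%) an Snf2h hotspot. Of the 28495 CHD4 regions that were shared in replicate 1, these shares were 93.8%, 95.8% and 81.3%. Of the 10121 chosen regions, 933 (9.22%) were again marked by CHD4 alone, 4514 (44.6%) by CHD4 with another antibody, 1672 (16.5%) by another antibody without CHD4, and 3002 (29.7%) by none. Not all of these 933 can meet the rule of the class, which holds 793 regions, since only hotspots overlapping the chosen interval were read. The same lists made the class, so their number is not separate evidence for it. The Brg1 and Snf2h lists of replicate 2 are longer than those of replicate 1.

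These shares depended on which Brg1 library did the choosing. With Brg1 replicate 2 in place of Brg1 replicate 1, 5258 regions were chosen, of which 29.3% held a hotspot in CHD4 replicate 2 and 8.35% in Brg1 replicate 1. With Brg1 and Snf2h replicate 2 and CHD4 replicate 1 as the choosing libraries, 4420 regions had CHD4 alone. Of these, 25.1% held a hotspot in CHD4 replicate 2, 6.79% in Brg1 replicate 1 and 4.71% in Snf2h replicate 1. The shared regions of the same libraries gave 91.4%, 76.3% and 43.5%. Regions without Brg1 and Snf2h in the longer lists were thus seldom marked by the shorter ones, and most of them lacked a hotspot in CHD4 replicate 2. Chosen on replicate 2 of all 3 antibodies, 186939 regions had CHD4 alone and 0.568% of them held a hotspot of CHD4 replicate 1, against 30.1% of 97129 shared regions. Brg1 replicate 1 marked 3.29% and Snf2h replicate 1 marked 0.654% of the same 186939 regions, against 42.5% and 18.5% of the shared ones. The libraries differ in list length, so the shares of different antibodies are not compared with each other.

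**Figure D5:**
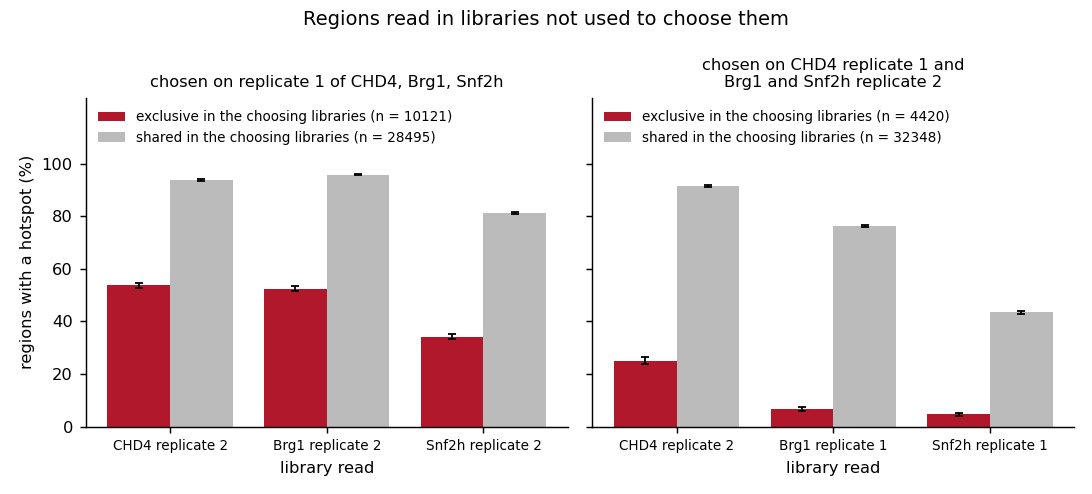
Share of regions with a hotspot (y axis, percent) in libraries not used to choose them. In the choosing libraries the regions had CHD4 alone (red) or CHD4 shared with Brg1 or Snf2h (grey). The choosing libraries were replicate 1 of all antibodies (left) or CHD4 replicate 1 with Brg1 and Snf2h replicate 2 (right). Whiskers are 95% Wilson intervals. Each red bar is below its grey neighbour, with 53.8%, 52.4% and 34.3% on the left and 25.1%, 6.79% and 4.71% on the right.

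Regions exclusive to the other remodelers, built in the same way, give the scale. Brg1 was exclusive at 8517 of its 51161 regions (16.6%) and Snf2h at 710 of 18085 (3.93%), against 793 of 30083 (2.64%) for CHD4. The share depends on the length of the other antibodies' lists, so it does not rank the remodelers. Median widths were 531 bp for CHD4-exclusive, 531 bp for Brg1-exclusive and 487 bp for Snf2h-exclusive regions, and the nearest hotspot of another antibody was a median of 1490, 1782 and 1455 bp away. All 3 classes ranked below the shared regions of the same antibody. In replicate 1 of each antibody the median percentile was 20.7 for CHD4-exclusive, 46.05 for Brg1-exclusive and 29.5 for Snf2h-exclusive regions, against 59.4, 79.1 and 70.3 for the shared regions of the same antibodies. In replicate 2 it was 64.9, 54.6 and 28.1 for the exclusive regions, against 93.4, 90.7 and 82.01 for the shared ones, so the CHD4 and Brg1 classes lay above the middle of these longer lists. The share of a class in the lowest 10% of the replicate 1 list was 32.3% for CHD4, 5.65% for Brg1 and 15.4% for Snf2h.

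The density on X of CHD4-exclusive regions lay between those of the other classes. It was 0.909 of the autosomal density for CHD4-exclusive regions, 0.399 for Brg1-exclusive regions (0.349 to 0.455) and 1.31 for Snf2h-exclusive regions (1.01 to 1.72). Per library, hotspots that overlapped no list of another antibody had ratios of 2.02 and 0.622 in CHD4 replicates 1 and 2, 0.922 and 0.490 in Brg1 replicates 1 and 2, and 2.12 and 1.27 in Snf2h replicates 1 and 2. The CHD4 libraries averaged 1.32 ± 0.990 (SD, n = 2) and the other libraries 1.20 ± 0.693 (SD, n = 4), a difference of 0.121 that is smaller than either SD (exact permutation p = 0.933, two-sided). With 2 libraries against 4 the smallest two-sided p possible is 0.133, so the test could not have passed a conventional threshold. The difference turned to -0.579 without CHD4 replicate 1 and to -0.116 without Brg1 replicate 2, and was 0.822 without CHD4 replicate 2. By replicate number, CHD4 stood at 2.02 against a mean of 1.52 for the other antibodies in replicate 1, and at 0.622 against 0.879 in replicate 2. In all 6 libraries the ratio was higher for hotspots unshared with other antibodies than for shared ones, whose ratios lay between 0.397 and 0.507. Unshared hotspots were also lower in every library, with median percentiles of 6.52 to 35.3 against 54.5 to 76.3. Hotspots on X had a lower median density than autosomal ones in every list. What part height has in these ratios was not tested.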

How the data were processed

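The authors called hotspots in each ChIP-seq library separately. CASAVA 1.6 and the mm9 build are named in the submitters' processing notes. How inputs were handled, which caller was used and at what threshold remain not given in the sources used here, and the extraction text in the labels describes another assay. The deposited lists give maximum and average tag density (a signal of unstated scaling), a Z score and a p-value, per the file headers. Depth in tags is unknown. Groups and replicate numbers came from sample titles. No label ties replicates to separate cultures, so spreads may be technical.

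All 6 lists were merged at 1 bp of overlap in Python 3.11.15 (pandas 2.3.3, numpy 2.4.6). Intervals of shares and permutations used scipy 1.17.1, and figures matplotlib 3.10.9. Intervals were read as closed. Distances count the bases between intervals, chromosome lengths are the spans covered by the lists, and a percentile is a hotspot's rank of maximum density within its list. The deposited p-value was not used. The merging was tested on simulated data. Named regions are the 10 of highest mean percentile and the 2 nearest to and 2 farthest from another antibody. The members and tests were chosen with earlier results of these data known. The reference tables at hand are of another assembly than mm9, so the planned promoter, gene list, GC content and motif results were not run.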

Additional observations from a re-analysis of the deposited data

How the results depend on the processing

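The class moved with the settings, and each setting rebuilt it, so the values below belong to different sets of regions. The number of exclusive regions was 243 at a common Z score and 469 with no other antibody within 1 kb. Leaving out 1 library at a time gave 858 to 179668, the highest without CHD4 replicate 1, and without Brg1 replicate 2 it was 2284. An omission cannot shrink the class, since it removes an exclusion or the need for both CHD4 libraries. All 793 regions stayed in it each time. The exclusive share of CHD4 regions was 3.14% with equal list lengths, 1.31% at the common Z score, 3.07% with hotspots of 500 bp and 1.56% with the 1 kb rule, and 2.85% to 63.4% with 1 library left out. With the 32310 tallest hotspots of every list 623 regions were exclusive, but only 135 of the 793 overlapped one of them, and at the common Z score 112 did. The density on X relative to autosomes was 0.168 with equal list lengths and 0.622 to 2.02 with 1 library left out, and it stayed within the counting interval under the other 4 settings. The median distance to another antibody was 1168 bp with an overlap of 50%, 2809 bp with equal lengths, 2128 bp at the common Z score, 1258 bp with 500 bp hotspots, 2976 bp with the 1 kb rule, and 1476.5 to 2251.5 bp with 1 library left out. A 1 kb rule removes near neighbours by construction. For other movements the cause was not tested.

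Shares read in libraries not used for the choice moved too. Regions chosen on replicate 1 gave 51.1% for CHD4 with an overlap of 50%, and 46.8%, 44.3% and 30.6% for CHD4, Brg1 and Snf2h with the 1 kb rule. Replicate 2 as the chooser gave 0.568%, 3.29% and 0.654% in that order. With CHD4 replicate 1, the CHD4, Brg1 and Snf2h shares were 44.3%, 42.4% and 7.07% for Brg1 replicate 1 with Snf2h replicate 2, 29.3%, 8.35% and 19.9% for Brg1 replicate 2 with Snf2h replicate 1, and 25.1%, 6.79% and 4.71% for replicate 2 of both. With CHD4 replicate 2 they were 2.06%, 22.4% and 4.67% for replicate 1 of both, 1.28%, 20.8% and 0.915% for Brg1 replicate 1 with Snf2h replicate 2, and 0.778%, 3.44% and 2.58% for Brg1 replicate 2 with Snf2h replicate 1. For the X ratio of unshared hotspots per library, CHD4 minus the other antibodies, a replicate block gave the same difference of 0.121 by construction, with an exact permutation p = 0.889 (two-sided, 9 arrangements, smallest possible 0.222), and leaving out 1 library at a time gave -0.579 to 0.822, below 0 without CHD4 replicate 1 (-0.579) and without Brg1 replicate 2 (-0.116). The block and these omissions were chosen after seeing the data, and no label says that a replicate number marks a shared batch. The counts and shares of regions come from no test and have no paired form. The promoter and GC content settings were not run, since sequence and annotation of mm9 were not used here.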
